A study of Homo sapiens with 40 samples.

Results

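The genes described here are the receptors, ligands and readout genes of the 5 factors in which human microglia-like cells were grown: CSF1R, CSF1, SDC1 and PTPRZ1 for M-CSF and IL-34, TGFBR1, TGFBR2, SMAD3 and SMAD7 for TGF-beta 1, CX3CR1 for CX3CL1, and CD200R1 for CD200. They were chosen by name, and each of the 10 was found by its Ensembl ID among the 60504 genes of the deposited expression table. The filter on low values kept genes with at least 1 TPM (a transcript level scaled for gene length and for the total of the library) in at least 7 libraries. It kept 14855 genes and 9 of the 10 members, and left out PTPRZ1. SMAD3, CD200R1 and SDC1 lay around that minimum, with 17, 26 and 21 of the 40 libraries at 1 TPM or more.

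Every library came from cells derived from the established embryonic stem cell line H9, and each edited line carries its change on both alleles after CRISPR/Cas9 editing. The groups are TREM2-KO (8 libraries), TREM2-R47H with the arginine-to-histidine variant of TREM2 (7), SORL1-KO with the stop codon R744X (7), SORL1-A528T (7), CD33-SNP (2), INPP5D-SNP, in which the single A allele of H9 was made homozygous (2), and unedited WT (7). All groups shared the culture: progenitors collected on day 11 were kept for 28 days with IL-34 at 100 ng/mL, TGF-beta 1 at 50 ng/mL and M-CSF at 25 ng/mL, and CD200 and CX3CL1 at 100 ng/mL each were present for the last 3 days, so no group lacked a factor. The labels give neither the number of clones behind a line nor the origin of its libraries in separate cultures, so the p-values below reflect spread among libraries that may be purely technical.

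CSF1R is a receptor tyrosine kinase that macrophages and microglia need to survive; it binds M-CSF, the product of CSF1, and IL-34, a ligand made mostly by neurons and skin cells. IL-34 also binds the proteoglycan syndecan-1 (SDC1) and the receptor phosphatase PTPRZ1. TGF-beta 1 binds TGFBR2, which activates TGFBR1; that kinase phosphorylates SMAD2 and SMAD3, and SMAD7, itself a target gene of the pathway, inhibits the receptor complex. CX3CR1 is the receptor of the neuronal chemokine CX3CL1, and CD200R1 is an inhibitory receptor for CD200, a protein of the neuronal surface. In the brain, CSF1R and TGF-beta signalling maintain microglia, and CX3CR1 is a hallmark of the resting state.

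RefSeq start-site windows (GRCh38.p14, 250 bases before to 50 after a start) were at hand for 9 of the 10 members, 27 windows in all, and not for CSF1. Windows of 5 members on which the results turn are printed, 5′ to 3′ on the gene's strand. For CSF1R the downstream of its 2 starts is shown. Capitals mark, in CSF1R, TGFBR2, CX3CR1 and CD200R1, GAGGAA (the PU box) or GGAAGT (a core of the ETS family of factors, to which the myeloid regulator PU.1 belongs) and, in SMAD3, the SMAD box CAGAC. Both strands were searched, so a capital run may be the reverse complement.
CSF1R, chr5:150086505-150086804, minus strand: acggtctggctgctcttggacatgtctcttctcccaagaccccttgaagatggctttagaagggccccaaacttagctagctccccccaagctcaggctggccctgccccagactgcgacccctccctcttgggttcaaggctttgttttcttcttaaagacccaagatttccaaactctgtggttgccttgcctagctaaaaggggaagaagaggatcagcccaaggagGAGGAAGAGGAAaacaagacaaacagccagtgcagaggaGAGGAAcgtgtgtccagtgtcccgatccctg
TGFBR2, chr3:30606351-30606650, plus strand: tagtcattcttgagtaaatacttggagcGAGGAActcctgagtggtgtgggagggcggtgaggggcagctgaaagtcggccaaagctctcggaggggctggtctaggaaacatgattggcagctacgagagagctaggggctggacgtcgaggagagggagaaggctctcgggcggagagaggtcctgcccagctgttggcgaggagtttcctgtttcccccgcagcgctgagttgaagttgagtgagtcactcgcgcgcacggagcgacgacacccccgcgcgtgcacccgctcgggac
SMAD3, chr15:67065352-67065651, plus strand: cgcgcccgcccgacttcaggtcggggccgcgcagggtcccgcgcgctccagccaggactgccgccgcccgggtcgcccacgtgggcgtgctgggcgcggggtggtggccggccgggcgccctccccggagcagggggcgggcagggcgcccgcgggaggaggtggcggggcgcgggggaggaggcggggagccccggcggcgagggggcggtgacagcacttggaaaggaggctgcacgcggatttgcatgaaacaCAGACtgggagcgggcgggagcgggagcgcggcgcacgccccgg
CX3CR1, chr3:39281686-39281985, minus strand: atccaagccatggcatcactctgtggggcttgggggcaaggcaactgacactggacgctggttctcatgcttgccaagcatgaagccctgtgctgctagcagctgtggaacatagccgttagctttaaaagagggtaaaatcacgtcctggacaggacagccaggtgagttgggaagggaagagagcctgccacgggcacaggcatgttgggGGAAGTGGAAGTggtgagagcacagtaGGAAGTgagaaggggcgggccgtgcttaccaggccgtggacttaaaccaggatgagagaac
CD200R1, chr3:112975054-112975353, minus strand: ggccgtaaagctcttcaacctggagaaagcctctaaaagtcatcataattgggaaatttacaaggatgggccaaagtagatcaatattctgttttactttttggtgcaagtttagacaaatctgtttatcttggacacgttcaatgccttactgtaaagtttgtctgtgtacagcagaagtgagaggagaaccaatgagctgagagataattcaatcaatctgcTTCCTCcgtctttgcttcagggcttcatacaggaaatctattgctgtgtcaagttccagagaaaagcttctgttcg

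The CX3CR1 window held GGAAGT 3 times, a sequence found in 22.8% of the 35116 windows in the table, and GAGGAA not at all. Its other windows held GGAAGT nowhere. GAGGAA was found 3 times in the printed CSF1R window and not in the window of the other CSF1R start, against at least once in 27.9% of all windows, and once each in those of TGFBR2 and CD200R1. The palindromic SMAD element GTCTAGAC was in none of the members' windows and in 0.202% of all windows, and CAGAC, which 45.3% of all windows held, occurred once in the printed SMAD3 window. Among the other SMAD3 windows, CAGAC occurred 4 times in chr15:67166281-67166580, once in chr15:67137771-67138070 and not in the rest. These matches are letters in a window, with no evidence here of binding.

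Across the 40 libraries the members ranged from nearly absent to highly abundant. CSF1R was the highest, between 600.3 and 1290 TPM, with a median of 726.0 TPM, and lay at the 99.7th percentile of the mean level of all genes. CX3CR1 followed with 98.8 to 609.1 TPM. TGFBR1 (61.63 to 142.6 TPM), TGFBR2 (32.72 to 106.0 TPM) and SMAD7 (45.06 to 60.28 TPM) were of middle level, and CSF1 lay between 5.51 and 58.03 TPM. The other 4 were weak: CD200R1 at 0.35 to 11.66 TPM, SDC1 at 0.07 to 3.1 TPM, SMAD3 at 0.08 to 2.15 TPM, and PTPRZ1 at no more than 0.24 TPM. The spread between the highest and the lowest library also differed by gene, from 1.338-fold for SMAD7 and 2.15-fold for CSF1R to 10.53-fold for CSF1 and 33.31-fold for CD200R1.

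**Figure D1:**
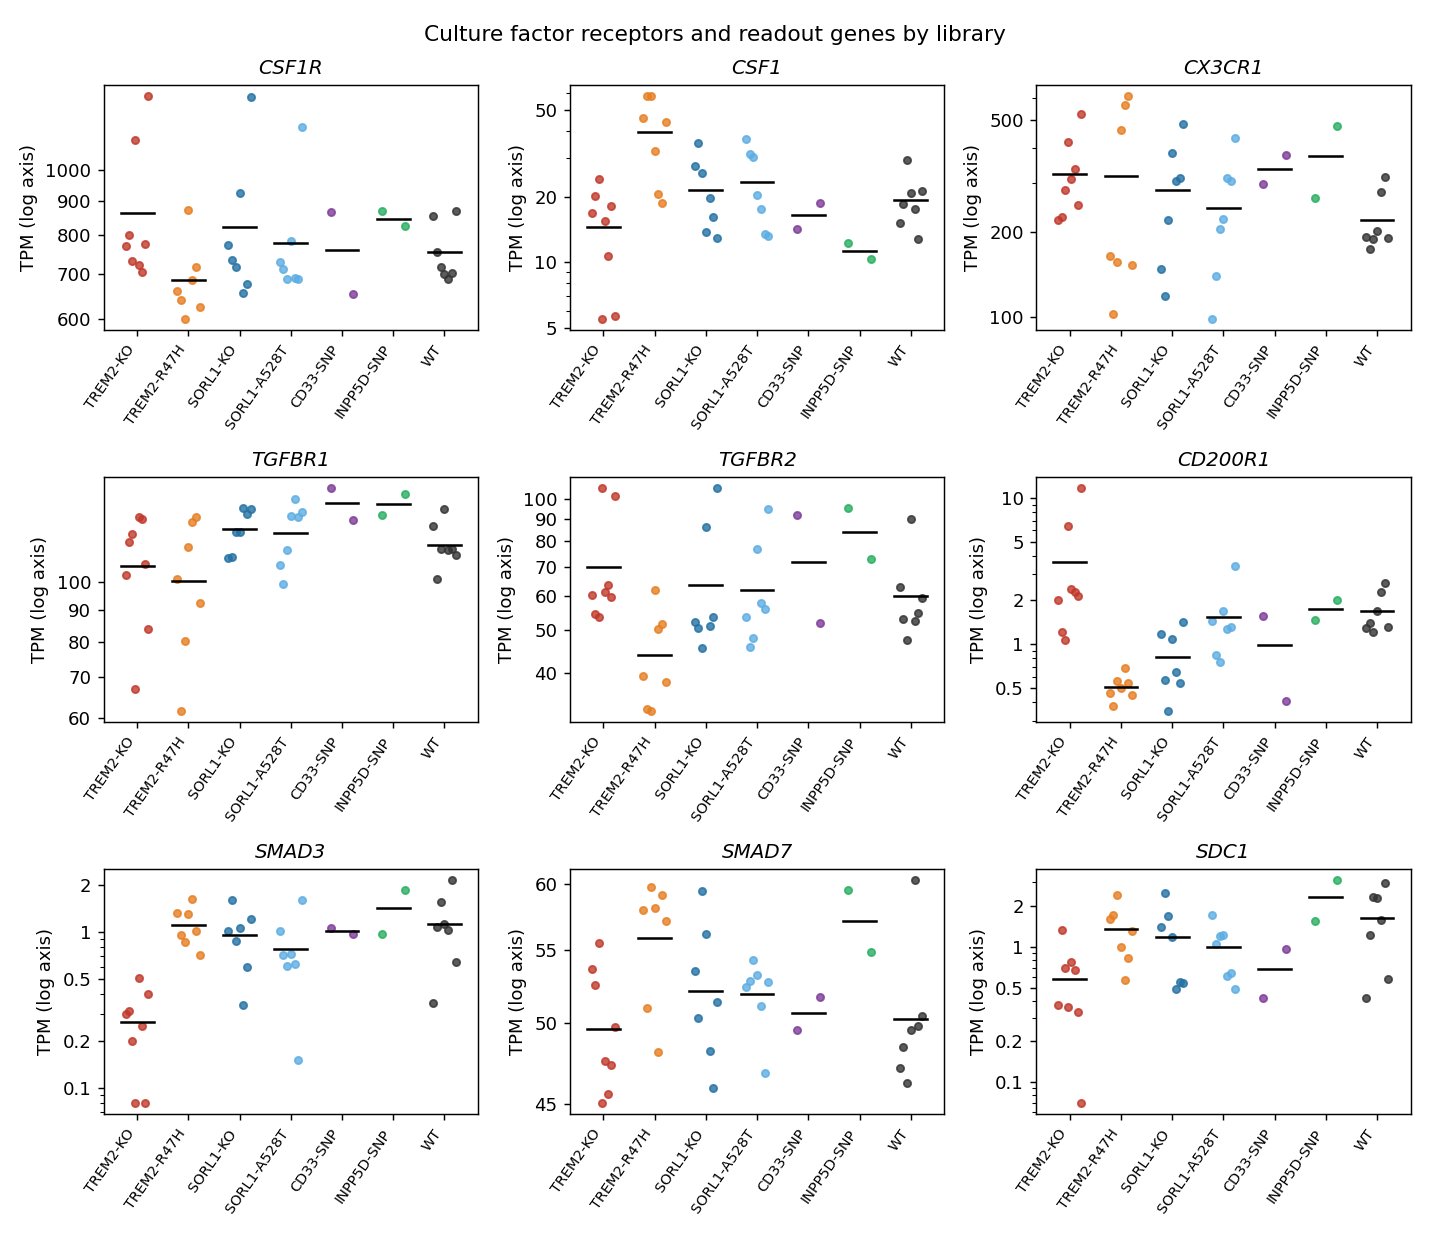
TPM (log axis) of the 9 members that passed the filter, with 1 point per library in each of the 7 groups and a line at the group mean. The CD200R1 points of TREM2-R47H, at 0.38 to 0.69 TPM, lie below those of both TREM2-KO and WT but within the range of SORL1-KO. The CX3CR1 points of TREM2-R47H fall into a low and a high set.

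The libraries hold RNA of macrophage-type cells: the summed level of 12 microglia and macrophage markers, CSF1R and CX3CR1 among them, was between 7214 and 15680 TPM, and 6 pluripotency markers summed to at most 0.67 TPM. Medians for markers of related cells differed between the lines. The median sum of 10 monocyte markers was 959.9 TPM in TREM2-KO, 189.8 TPM in TREM2-R47H and 494.1 TPM in WT. In the same order these sums ran from 339.1 to 2391 TPM, 149.1 to 469.5 TPM and 308.2 to 3633 TPM. WT thus spanned the whole range of TREM2-KO. The median sum of 7 border macrophage markers was 600.8 TPM in TREM2-KO, 215.3 TPM in TREM2-R47H and 408.3 TPM in WT. Its ranges were 482.6 to 1187 TPM, 153.5 to 386.2 TPM and 295.8 to 876.9 TPM. The part of these cells in the changes below, those of CD200R1 and TGFBR2 included, was not tested. The labels were checked on TREM2, which averaged 35.3 ± 8.39 TPM in TREM2-KO and 457 ± 120 TPM in WT (SD, n = 8 and 7), and on SORL1, which averaged 16.1 ± 3.00 TPM in SORL1-KO and 33.3 ± 9.74 TPM in WT (SD, n = 7 each). Library 8 of TREM2-KO and library 7 of both SORL1-KO and SORL1-A528T stood apart, with median correlations with their own group of 0.9328 to 0.9457, and library 4 of TREM2-KO came next at 0.9496. Libraries 5 and 6 were the closest pair of their line in TREM2-KO, SORL1-KO, SORL1-A528T and WT but not in TREM2-R47H, and the labels do not explain the numbers. In bulk RNA, fewer cells of a type and less RNA per cell cannot be told apart.

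Changes were tested with limma on log2(TPM + 1) over all 14855 kept genes, with p-values adjusted by Benjamini-Hochberg and called below 0.05; this scale understates changes of genes near 1 TPM, and every log2 change below is on it. Of the 9 members tested, 1 was called in TREM2-KO against WT, where 1.61% of all kept genes were called and 1.33% were called lower. In TREM2-R47H against WT 2 were called, where 11.4% of kept genes were called, 2.63% higher and 8.77% lower. Between TREM2-KO and TREM2-R47H 5 were called, 2 higher and 3 lower, where 21.3% of kept genes were called, 14.7% higher and 6.58% lower. The comparisons with WT share the WT libraries, and those with TREM2-R47H share its libraries. With median-ratio scaling the split of called genes moved, to 600 higher and 831 lower for TREM2-R47H against WT (390 and 1303 without it), and to 1451 higher and 1388 lower between TREM2-KO and TREM2-R47H (2180 and 977 without it).

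No member was called by limma in the other 5 comparisons, where calls were rare among all genes too: 1.09% for SORL1-KO against WT, 0.0471% for SORL1-A528T against WT, 0% for CD33-SNP against WT, 0.0337% for INPP5D-SNP against WT and 0.0942% for SORL1-KO against SORL1-A528T. For CD33-SNP, limma gave 621 of 14855 genes an unadjusted p below 0.05, none of them a member; in the other 4 comparisons 1 member, CD200R1 in SORL1-KO against WT, had one. The 2 libraries each of CD33-SNP and INPP5D-SNP leave wide errors, for example a change of 0.73 ± 0.53 (SE) for CX3CR1 in INPP5D-SNP against WT.

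**Figure D2:**
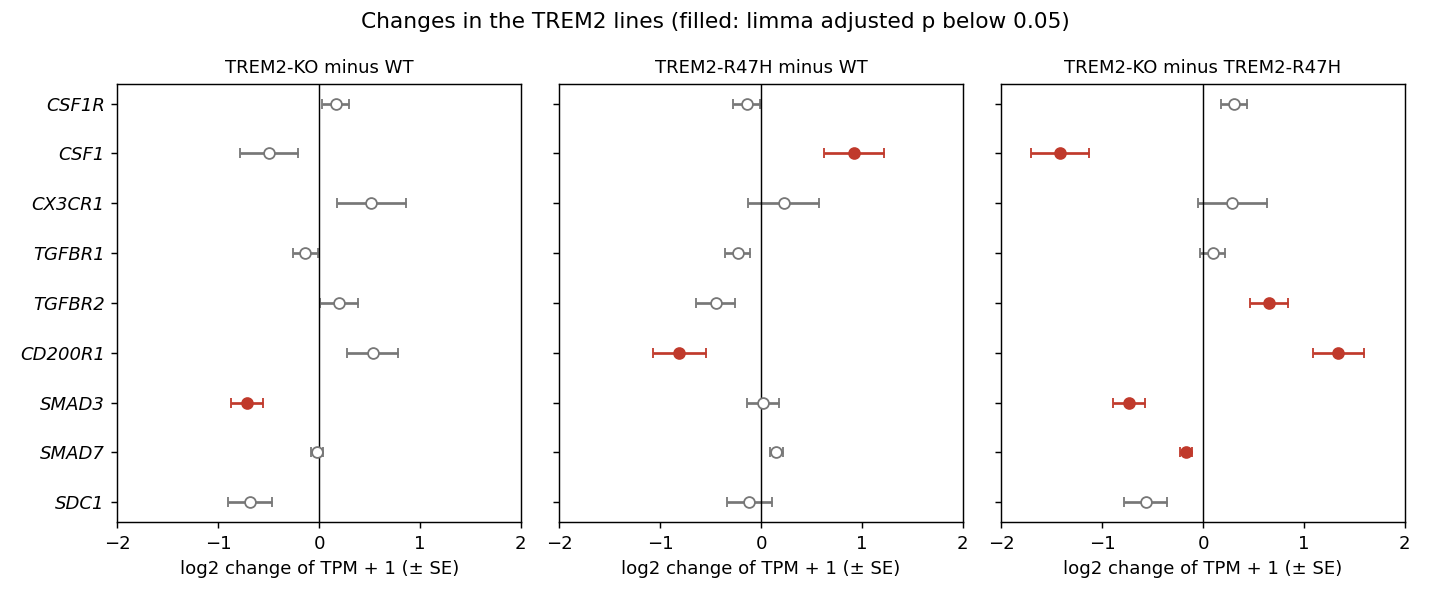
Change of 9 members on the log2(TPM + 1) scale with its standard error in TREM2-KO against WT, TREM2-R47H against WT and TREM2-KO against TREM2-R47H; filled points have a limma adjusted p below 0.05. SMAD3 is low in both comparisons that involve TREM2-KO, and CSF1 and CD200R1 lie on opposite sides of 0 in TREM2-R47H against WT.

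Among the ligands, CSF1 was called higher in TREM2-R47H against WT and lower in TREM2-KO against TREM2-R47H. It read 16.87, 20.26, 24.2, 5.51, 15.5, 10.66, 18.13 and 5.64 TPM in the 8 TREM2-KO libraries. TREM2-R47H libraries had 46.06, 57.93, 58.03, 32.44, 20.51, 18.8 and 44.15 TPM, and WT libraries had 15.22, 18.55, 29.5, 20.85, 17.48, 12.83 and 21.29 TPM. Libraries 1, 2, 3, 4 and 7 of TREM2-R47H lay above every WT library, while libraries 5 and 6 were within the WT range. The means were 39.7 ± 16.3 TPM in TREM2-R47H and 19.4 ± 5.37 TPM in WT (SD, n = 7 each), a log2 change of 0.92 ± 0.30 (SE) with a limma adjusted p of 0.0375. Against TREM2-R47H, TREM2-KO with 14.6 ± 6.77 TPM was lower by a log2 change of -1.42 ± 0.29 (limma adjusted p = 0.000393), and all 8 of its libraries were below the TREM2-R47H mean. Against WT, the change in TREM2-KO was -0.50 ± 0.29 and was not called (limma adjusted p = 0.596).

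The CSF1 call of TREM2-R47H against WT was not stable to single libraries. Leaving out library 1, 2, 3 or 7 of TREM2-R47H, or 1, 2, 5 or 6 of WT, raised the limma adjusted p above 0.05, to at most 0.0981, and over the omissions of each of the 40 libraries the log2 change lay between 0.81 and 1.07. Of the 10 alternatives besides these omissions 9 kept the call, the block for library number among them. Without the filter on low values it was lost (limma adjusted p = 0.0836). Within library numbers, TREM2-R47H was above WT at each of the 7 numbers, by 1.59 at number 2 and by 0.22 at number 5 on the log2(TPM + 1) scale. In the other lines CSF1 averaged 21.6 ± 8.27 TPM in SORL1-KO and 23.3 ± 9.46 TPM in SORL1-A528T (SD, n = 7 each), with 14.23 and 18.82 TPM in CD33-SNP and 12.27 and 10.31 TPM in INPP5D-SNP. Both INPP5D-SNP values were below the lowest WT value of 12.83 TPM, without a call (limma adjusted p = 0.667). In the order of group means TREM2-R47H stood above the next line, SORL1-A528T, by 16.4 TPM, about the size of its own SD, and no other neighbours differed by more than the larger of their SDs.

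The other ligands of these receptors were either high everywhere or close to nil. TGFB1 transcripts, encoding TGF-beta 1 itself, lay between 130.5 and 259.2 TPM in all 40 libraries and were called in none of the 8 comparisons. IL34 reached at most 0.51 TPM and CX3CL1 at most 0.42 TPM, and CD200 at most 1.08 TPM, so those ligands had hardly any transcript in the culture.

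CSF1R itself was called in no comparison. TREM2-KO libraries had 770.84, 798.95, 732.31, 1111.28, 722.47, 705.19, 775.55 and 1290.47 TPM, TREM2-R47H libraries 660.76, 640.13, 600.33, 870.89, 684.75, 717.29 and 625.54 TPM, and WT libraries 855.17, 755.38, 717.29, 699.26, 688.57, 701.13 and 868.62 TPM. All 8 TREM2-KO libraries were above the TREM2-R47H mean of 686 TPM, yet the groups overlapped, and the log2 change of 0.31 ± 0.13 (SE) missed the threshold (limma adjusted p = 0.0943). The highest values of the series sat in libraries that stood apart: 1290.47 TPM in library 8 of TREM2-KO, 1287.7 TPM in library 7 of SORL1-KO and 1161.44 TPM in library 7 of SORL1-A528T. The remaining SORL1-KO libraries reached 924.84 TPM and the remaining SORL1-A528T libraries 783.85 TPM, and the means of SORL1-KO and WT, 824 and 755 TPM, differed by less than the spread within SORL1-KO (SD 223 TPM). No neighbours in the order of the 7 group means, which ran from 863 TPM in TREM2-KO to 686 TPM in TREM2-R47H, differed by more than the larger of their SDs.

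Of the further receptors of IL-34, PTPRZ1 was listed at 0 in 33 of the 40 libraries. It read 0.22, 0.08 and 0.01 TPM in libraries 6, 7 and 8 of TREM2-KO, 0.08 TPM in library 1 of CD33-SNP, 0.02 TPM in both INPP5D-SNP libraries and 0.24 TPM in library 7 of WT. A 0 in a table of estimates is a listed value and no proof of absence, and two-sided exact permutation tests gave no p below 0.246 in the 8 comparisons (1.0 after adjustment over them).

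SDC1 was also weak. Its values were 0.37, 1.34, 0.7, 0.36, 0.77, 0.67, 0.33 and 0.07 TPM in TREM2-KO, 1.6, 1.72, 2.42, 1.0, 0.57, 0.82 and 1.32 TPM in TREM2-R47H, and 0.42, 1.22, 2.32, 2.31, 1.57, 2.99 and 0.58 TPM in WT. Every TREM2-KO library was below the WT mean of 1.63 TPM, though libraries 1 and 7 of WT were as low as TREM2-KO. The log2 change of -0.68 ± 0.22 (SE) in TREM2-KO against WT was not called (limma adjusted p = 0.106), nor was that of -0.57 ± 0.22 against TREM2-R47H (limma adjusted p = 0.0554). With limma, the first was called without library 1 of WT (adjusted p = 0.0382), and the second without library 2 of TREM2-KO, library 5 or 6 of TREM2-R47H, library 2 of SORL1-KO or library 1 or 6 of WT (adjusted p between 0.028 and 0.0479). The second was also called with a pseudocount of 0.1 TPM (limma adjusted p = 0.0318), median-ratio scaling (0.0444), the 2 groups alone (0.0452) and libraries 5 and 6 averaged (0.0391).

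SDC1 was read beside markers of stromal and endothelial cells, which also carry syndecans. The 3 genes whose log2 levels were most like it over the 40 libraries were COL6A1 (Pearson r = 0.857), UCHL1 (0.83) and COL6A2 (0.814), the first and the last encoding collagen VI chains. Of 14 stromal and endothelial markers, PECAM1, which macrophages also express, had 123.8 to 446.0 TPM in all libraries and was left out of the sum after the values were seen. The other 13 summed to 6.97 to 229.2 TPM in TREM2-KO, with a median of 14.4 TPM, to 9.24 to 137.5 TPM in TREM2-R47H (27.1 TPM) and to 8.58 to 3049 TPM in WT (523.9 TPM). With PECAM1 the medians were 335.7 TPM in TREM2-KO, 235.5 TPM in TREM2-R47H and 742.0 TPM in WT, so the order of the TREM2 lines turned with this 1 gene. WT library 6, with the highest sum, also had the highest WT level of SDC1, 2.99 TPM. INPP5D-SNP library 2, with 1979 TPM of the 13 markers, had 3.1 TPM. WT library 3, however, had the lowest WT sum and 2.32 TPM of SDC1, and WT library 5 had 1168 TPM of the markers and 1.57 TPM of SDC1. Among these markers CDH5, an endothelial cadherin, stayed under 0.5 TPM in every library of all 7 groups. Other marker lists differed between the lines too, with overlapping ranges. The median sum of 8 plasma cell and lymphoid markers was 7.5 TPM in TREM2-KO, 6.55 TPM in TREM2-R47H and 18.65 TPM in WT. That of 7 epithelial markers was 63.95 TPM in TREM2-KO, 48.06 TPM in TREM2-R47H and 82.36 TPM in WT. The part of any of these cells in the SDC1 values was not tested.

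TGFBR1 was called in no comparison. It lay between 66.8 and 128.01 TPM in TREM2-KO, with a median of 111.7 TPM, between 61.63 and 127.82 TPM in TREM2-R47H (101.39 TPM) and between 101.29 and 131.91 TPM in WT (113.39 TPM). The 3 ranges overlapped, and the log2 changes against WT were -0.14 ± 0.12 (SE) in TREM2-KO and -0.23 ± 0.13 in TREM2-R47H (limma adjusted p = 0.752 and 0.271). Low values sat in library 4 of TREM2-KO (66.8 TPM), library 8 of TREM2-KO (84.01 TPM), and libraries 2 and 3 of TREM2-R47H (61.63 and 80.19 TPM). Means of the other lines were 122 ± 9.70 TPM in SORL1-KO, 120 ± 14.0 TPM in SORL1-A528T, 135 ± 11.3 TPM in CD33-SNP and 134 ± 7.61 TPM in INPP5D-SNP (SD, n = 7, 7, 2 and 2), against 115 ± 9.81 TPM in WT (n = 7). The step between INPP5D-SNP and SORL1-KO was the only one in this order above the larger SD.

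TGFBR2 varied more, and in another way. The values were 60.35, 54.6, 53.59, 105.96, 61.3, 63.72, 59.71 and 101.46 TPM in TREM2-KO, 39.31, 33.06, 32.72, 61.99, 50.33, 51.8 and 38.08 TPM in TREM2-R47H, and 62.9, 53.22, 47.6, 89.94, 52.56, 54.74 and 59.47 TPM in WT. Within each line library 4 stood high, and TREM2-R47H was below WT at each of the 7 shared library numbers. TREM2-KO averaged 70.1 ± 21.1 TPM and TREM2-R47H 43.9 ± 11.0 TPM (SD, n = 8 and 7), a log2 change of 0.65 ± 0.19 (SE) that was called (limma adjusted p = 0.0119) and stayed so in every alternative and omission run. TREM2-R47H against WT, with 43.9 and 60.1 TPM, gave -0.45 ± 0.20 and no call (limma adjusted p = 0.141). With the library number as a block, by which the libraries of TREM2-R47H and WT paired, the same change had an SE of 0.12 and was called (limma adjusted p = 0.00683). WT stood above TREM2-R47H, the lowest line, by 16.2 TPM, more than the larger of their SDs; no other neighbours did so.

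**Figure D3:**
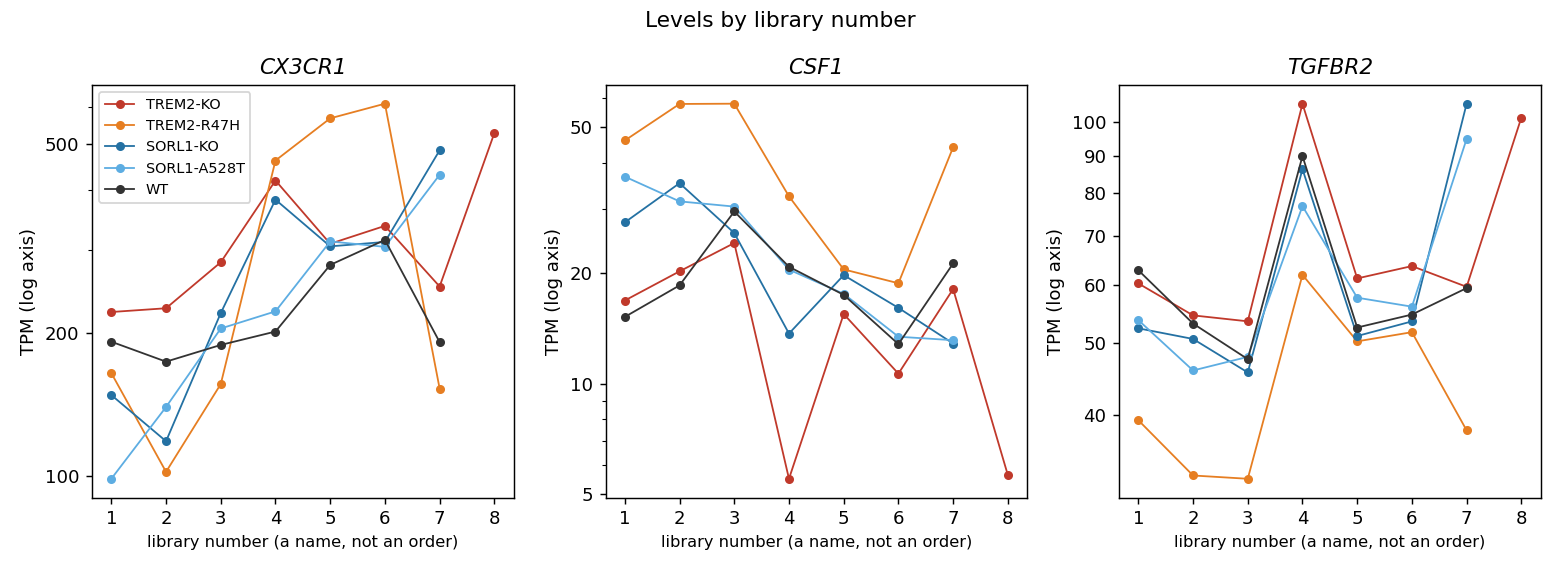
TPM (log axis) of CX3CR1, CSF1 and TGFBR2 by library number in 5 lines; lines join libraries of a line and mark no order in time. CX3CR1 of TREM2-R47H is at 462.36 to 609.09 TPM in libraries 4 to 6 and at 102.18 to 164.95 TPM in the others, and TGFBR2 peaks at number 4 in every line, SORL1-KO and SORL1-A528T at number 7 apart.

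SMAD3, a signal carrier of the TGF-beta receptors, had its lowest group mean in TREM2-KO. It read 0.3, 0.31, 0.2, 0.08, 0.51, 0.25, 0.08 and 0.4 TPM in TREM2-KO, 1.33, 0.96, 0.86, 1.3, 1.63, 1.01 and 0.71 TPM in TREM2-R47H, and 0.35, 1.08, 1.56, 1.13, 1.03, 2.15 and 0.64 TPM in WT. The TREM2-KO values lay below all TREM2-R47H values and below 6 of the 7 WT values, WT library 1 being the exception. The means were 0.266 ± 0.149 TPM in TREM2-KO and 1.13 ± 0.590 TPM in WT (SD, n = 8 and 7), with a log2 change of -0.71 ± 0.16 (SE; limma adjusted p = 0.00946). Against TREM2-R47H, with 1.11 ± 0.319 TPM, the change was -0.73 ± 0.16 (limma adjusted p = 0.000715). Both calls held without any single library, with the highest adjusted p at 0.0344 and 0.00253. At such levels the size depends on the pseudocount: the change against WT was -1.71 with 0.1 TPM and -0.22 with 5 TPM, and a filter at 5 TPM leaves SMAD3 out.

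SMAD3 and SDC1 correlated over the libraries (Pearson r = 0.627). Beside the sums of the 13 stromal markers given above, SMAD3 had 0.08 to 0.51 TPM in TREM2-KO and 0.71 to 1.63 TPM in TREM2-R47H. In WT, the lowest SMAD3 of 0.35 TPM stood beside a sum of 77.3 TPM in library 1, and the highest of 2.15 TPM beside 3049 TPM in library 6, while library 3 had 1.56 TPM beside the lowest WT sum of 8.58 TPM. The part of stromal cells in the SMAD3 values was not tested. The genes most like SMAD3 over the 40 libraries were HSPB7 (r = 0.802), TSKU (0.786) and TPST1 (0.779). SORL1-KO averaged 0.961 ± 0.415 TPM and SORL1-A528T 0.777 ± 0.451 TPM (SD, n = 7 each), CD33-SNP had 1.07 and 0.97 TPM, and INPP5D-SNP had 0.98 and 1.86 TPM. The step between SORL1-A528T and TREM2-KO at the low end was the only one above the larger SD.

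SMAD7, the inhibitory SMAD, was the most even member. It lay between 45.06 and 55.53 TPM in TREM2-KO, with a median of 48.7 TPM, between 48.16 and 59.77 TPM in TREM2-R47H (58.0 TPM) and between 46.27 and 60.28 TPM in WT (49.54 TPM). All 8 TREM2-KO libraries were below the TREM2-R47H mean of 55.9 TPM but the ranges overlapped, and the log2 change of -0.17 ± 0.06 (SE) was called (limma adjusted p = 0.04). That call was lost in 10 of the 40 omissions of a single library, with an adjusted p of up to 0.094: those of TREM2-KO library 4, 5, 6, 7 or 8 and of TREM2-R47H library 1, 3, 4, 6 or 7. It was also lost without the filter (0.0856), in a fit of the 2 groups alone (0.0971) and without the 3 libraries that stood apart (0.0516). Against WT the change in TREM2-R47H was 0.15 ± 0.06 and not called (limma adjusted p = 0.114), but it was 0.23 and called with median-ratio scaling (adjusted p = 0.0196) and with quantile normalization (0.0148). No gene tracked SMAD7 closely; the nearest were ENSG00000236377 (r = 0.662), RPL23AP82 (0.606) and EPB41L4A-AS1 (0.59).

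CX3CR1 differed more within lines than between them. TREM2-KO libraries had 221.8, 225.89, 282.32, 419.68, 308.83, 336.8, 251.01 and 528.1 TPM, TREM2-R47H libraries 164.95, 102.18, 156.39, 462.36, 567.33, 609.09 and 153.0 TPM, and WT libraries 192.06, 174.35, 189.06, 201.76, 278.69, 314.64 and 191.7 TPM. All 8 TREM2-KO libraries were above the WT mean of 220 TPM, with overlap of the groups. By library number, TREM2-KO was above WT at each of the 7 shared numbers, by 0.10 to 1.05 on the log2 scale. The log2 change between the groups of 0.52 ± 0.34 (SE) was not called (limma adjusted p = 0.658), nor was the 0.41 with the library number as a block (0.549). TREM2-R47H fell into libraries 4, 5 and 6, all above every WT library, and libraries 1, 2, 3 and 7, all below every WT library. Its change against WT was accordingly 0.23 ± 0.35 with no call (limma adjusted p = 0.778): 1.19, 1.02 and 0.95 at numbers 4, 5 and 6, and -0.22, -0.77, -0.27 and -0.32 at numbers 1, 2, 3 and 7. TREM2-KO against TREM2-R47H split the same way, with -0.14, -0.88 and -0.85 at numbers 4, 5 and 6 and 0.43, 1.14, 0.85 and 0.71 at numbers 1, 2, 3 and 7. The direction of the TREM2-R47H values thus turned with the library number.

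In the other lines CX3CR1 was 148.29, 118.54, 220.67, 382.47, 304.94, 311.54 and 485.81 TPM in SORL1-KO, 98.8, 139.93, 204.76, 222.49, 312.31, 304.21 and 431.45 TPM in SORL1-A528T, 295.9 and 376.8 TPM in CD33-SNP and 265.7 and 478.77 TPM in INPP5D-SNP. No neighbours in the order of group means differed by more than the larger SD. The genes most like CX3CR1 were TLR7 (r = 0.935), SESN3 (0.925) and P2RY12 (0.923), the last a purinergic receptor of resting microglia. The labels describe CX3CR1-2A-EGFP reporter lines made from the control, TREM2-R47H and SORL1-R744X lines and do not say whether any library here came from one.

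The dependence on library number was tested after the values had been seen, in the 30 libraries numbered 1 to 6 of TREM2-KO, TREM2-R47H, SORL1-KO, SORL1-A528T and WT. A limma F test of the numbers called 5 of the 9 members where it called 50.0% of all kept genes, a share near the background. CX3CR1 (limma adjusted p = 0.000157) averaged 165, 152, 211, 338, 354 and 375 TPM over the 5 lines at numbers 1 to 6. CSF1 (limma adjusted p = 0.000347) averaged 28.5, 32.7, 33.6, 18.6, 18.2 and 14.4 TPM, so it was low where CX3CR1 was high. TGFBR2 (limma adjusted p = 8.6e-08) averaged 84.2 TPM at number 4 and between 45.5 and 56.0 TPM at the other numbers. CSF1R (limma adjusted p = 0.00415) and CD200R1 (0.044) were also called, whereas TGFBR1, SDC1, SMAD7 and SMAD3 were not (adjusted p = 0.143, 0.289, 0.558 and 0.99).

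CD200R1, the inhibitory receptor of CD200, had its lowest group mean in TREM2-R47H. Its values were 2.01, 1.21, 1.07, 6.43, 2.39, 2.28, 2.15 and 11.66 TPM in TREM2-KO, 0.46, 0.38, 0.56, 0.5, 0.69, 0.54 and 0.45 TPM in TREM2-R47H, and 1.28, 1.39, 1.22, 1.69, 2.29, 2.64 and 1.32 TPM in WT. No TREM2-R47H library reached the lowest value of TREM2-KO or of WT. TREM2-R47H averaged 0.511 ± 0.0991 TPM and WT 1.69 ± 0.560 TPM (SD, n = 7 each), with a log2 change of -0.81 ± 0.26 (SE; limma adjusted p = 0.0378). TREM2-KO, at 3.65 ± 3.64 TPM, was above TREM2-R47H by a log2 change of 1.34 ± 0.25 (limma adjusted p = 0.000161), and that call held without any single library. The TREM2-KO mean rests on libraries 4 and 8, the other 6 lying between 1.07 and 2.39 TPM, and against WT the change of 0.53 ± 0.25 was not called (limma adjusted p = 0.442). The call of TREM2-R47H against WT was lost without TREM2-R47H library 1, 2, 3, 4 or 7 or WT library 4, 5 or 6, with an adjusted p of at most 0.087, with a pseudocount of 5 TPM (0.201), without the filter (0.0822), and with libraries 5 and 6 averaged (0.116).

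Among the remaining lines CD200R1 averaged 0.823 ± 0.394 TPM in SORL1-KO and 1.53 ± 0.903 TPM in SORL1-A528T (SD, n = 7 each), with 1.56 and 0.41 TPM in CD33-SNP and 1.47 and 2.0 TPM in INPP5D-SNP. SORL1-KO was 0.57 ± 0.26 below WT on the log2 scale, without a call (limma adjusted p = 0.409). Its libraries lay between 0.35 and 1.41 TPM, a range that held every TREM2-R47H value. No neighbours in the order of the CD200R1 group means differed by more than the larger of their SDs.

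CD200R1 moved with SLC18A2 and FCER1A, which are among the genes of mast cells and basophils, cells that also carry this receptor. Over the 40 libraries the gene nearest to CD200R1 was SLC18A2, a vesicular monoamine transporter (Pearson r = 0.911). FCER1A, the alpha chain of the IgE receptor (0.904), and MTR (0.899) came next. Without the 3 libraries that stood apart the values were 0.902, 0.853 and 0.854, in the same order. FCER1A averaged 19.8 TPM in TREM2-KO, 0.397 TPM in TREM2-R47H and 3.57 TPM in WT, and reached 94.5 TPM in library 8 and 28.0 TPM in library 4 of TREM2-KO, the 2 libraries with the highest CD200R1. A list of 9 mast cell and basophil genes, drawn up after this likeness was seen, summed to 161.5 to 303.9 TPM in TREM2-KO, 116.5 to 226.4 TPM in TREM2-R47H and 150.2 to 204.2 TPM in WT, and HPGDS alone, a prostaglandin D synthase, averaged 157 TPM in TREM2-KO, 157 TPM in TREM2-R47H and 146 TPM in WT. FCER1A, SLC18A2 and KIT, 3 of its 7 kept genes, fell in TREM2-R47H against WT (limma adjusted p = 0.0335, 0.000227 and 0.0015). The protease gene CPA3, HDC for histamine synthesis and GATA2 were not called (limma adjusted p = 0.345, 0.608 and 0.653), and averaged 4.77, 1.80 and 1.41 TPM in TREM2-R47H and 2.85, 1.32 and 1.05 TPM in WT. MS4A2, the beta chain of the IgE receptor, averaged 0.106 TPM in TREM2-R47H and 0.11 TPM in WT. In SORL1-KO, where CD200R1 averaged 0.823 TPM, CPA3, HDC and GATA2 had their highest group means, 7.94, 3.53 and 2.49 TPM. KIT, SLC18A2, FCER1A and HPGDS averaged 2.89, 5.57, 2.46 and 133 TPM in SORL1-KO and 6.23, 10.4, 3.57 and 146 TPM in WT. The part of such cells in the CD200R1 values was not tested.

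**Figure D4:**
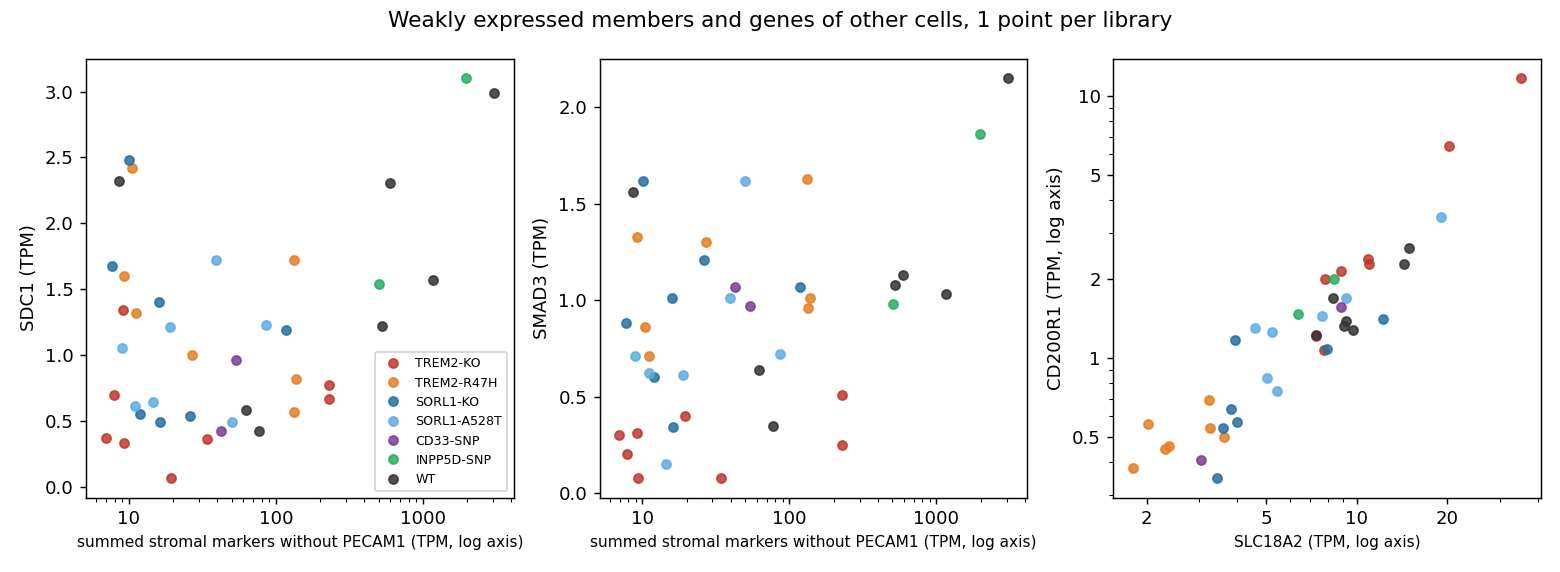
SDC1 (left) and SMAD3 (middle) in TPM against the summed TPM of 13 stromal and endothelial markers, PECAM1 left out (log axis), and CD200R1 against SLC18A2 in TPM (right, both axes log), with 1 point per library coloured by group. SMAD3 of TREM2-KO lies below that of TREM2-R47H, and the TREM2-R47H points sit at the low end of both CD200R1 and SLC18A2, beside some of SORL1-KO.

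How the members went together across libraries is a description over 40 points that share lines and library numbers. CSF1R and TGFBR2 correlated positively (Pearson r = 0.826 on the log2 scale). The 3 libraries that stood apart were high in both. Library 8 of TREM2-KO and library 7 of SORL1-KO and SORL1-A528T had 1290.47, 1287.7 and 1161.44 TPM of CSF1R, and 101.46, 105.99 and 94.91 TPM of TGFBR2. Correlations of member pairs without these libraries were not computed. CSF1 went against TGFBR2 (r = -0.803), CD200R1 (-0.76), CX3CR1 (-0.709) and CSF1R (-0.64). TGFBR2 was most like FCGR2A, an IgG receptor (r = 0.974), RCSD1 (0.971) and C1QA, a complement chain (0.966). CSF1R was most like LMBRD1 (0.938), CREBL2 (0.938) and TMEM127 (0.935), which fell to 0.865, 0.882 and 0.86 without the 3 libraries that stand apart. CSF1 was most like GFOD1 (0.932) and DUSP2 (0.93), a phosphatase of MAP kinases, and TGFBR1 like SLC31A1 (0.771), PTPRJ (0.768) and STK10 (0.744).

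The wider CSF1R pathway held 28 listed genes, 26 of them kept. In TREM2-R47H against WT, where 11.4% of kept genes were called, 1 was called higher, CSF1, and 10 lower, with a median log2 change of -0.18 against -0.06 over all genes. PTPN6, the phosphatase SHP-1 that damps receptor signals, averaged 188 ± 26.3 TPM in TREM2-R47H and 298 ± 10.0 TPM in WT (SD, n = 7 each; limma adjusted p = 3.92e-08). The kinase SRC averaged 15.6 ± 3.14 TPM in TREM2-R47H and 27.4 ± 5.49 TPM in WT (limma adjusted p = 0.000143), and the kinase LYN 111 ± 19.9 TPM in TREM2-R47H and 155 ± 18.6 TPM in WT (0.00312). SOCS3, a feedback inhibitor of cytokine signals, averaged 3.49 ± 1.46 TPM in TREM2-R47H and 9.63 ± 6.02 TPM in WT (limma adjusted p = 0.0107). The count of lower genes depended on processing, with 6 lower without the filter, 5 under median-ratio scaling and 4 under quantile normalization, these 4 genes among them each time. In TREM2-KO against WT none was called higher and 2 were called lower: FYN, a kinase of the SRC family, averaged 17.3 ± 7.54 TPM in TREM2-KO and 50.2 ± 16.7 TPM in WT (limma adjusted p = 0.000556), and PTPN6 248 ± 23.3 TPM in TREM2-KO and 298 ± 10.0 TPM in WT (0.0341; not called with quantile normalization or without the filter). PTPN6 was also the 1 gene of the list called in SORL1-KO against WT, with 236 ± 16.8 TPM in SORL1-KO (limma adjusted p = 0.0145). TREM2-KO against TREM2-R47H, where 21.3% of all kept genes were called, had 11 of the 26 higher and 2 lower, FYN and CSF1. The median log2 change was 0.29, against 0.06 over all genes, and median-ratio scaling gave 6 higher and 4 lower.

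Genes that make, store or activate TGF-beta (15 of 17 kept) had 0 called higher and 2 lower in TREM2-KO against WT. They had 1 higher and 3 lower in TREM2-R47H against WT, and 0 higher and 4 lower between TREM2-KO and TREM2-R47H. Over all kept genes 1.61%, 11.4% and 21.3% were called in these comparisons, in the same order. ITGB5, an integrin subunit, averaged 166 ± 24.5 TPM in TREM2-KO and 231 ± 39.5 TPM in WT (SD; limma adjusted p = 0.0252), a call lost without the filter and in a fit of the 2 groups alone. ITGB3, another subunit, averaged 5.84 ± 1.47 TPM in TREM2-R47H and 3.28 ± 1.06 TPM in WT (limma adjusted p = 0.00698), and 2.05 ± 0.629 TPM in TREM2-KO (2.56e-06 in TREM2-KO against TREM2-R47H). DCN, a proteoglycan of connective tissue that binds TGF-beta, fell in TREM2-KO, TREM2-R47H and SORL1-KO against WT (limma adjusted p = 0.0368, 0.0275 and 0.0473), but is itself among the stromal markers, and its WT mean of 46.7 TPM had an SD of 74.9 TPM. Its calls in TREM2-KO and SORL1-KO were lost without the 3 libraries that stood apart, and in all 3 lines DCN was not called without the filter or with a pseudocount of 0.1 TPM. The large TGFB3 and THBS1 changes in TREM2-R47H, at 0.619 and 0.473 TPM against 2.67 and 3.15 TPM in WT, were of weak genes. With libraries 5 and 6 averaged, DCN was called in neither TREM2 line against WT, and TGFB3 was not called in TREM2-R47H. In a fit of TREM2-R47H and WT alone none of DCN, TGFB3 and THBS1 was called.

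None of the 10 kept receptor genes of the TGF-beta family was called by limma against WT in any line; at an unadjusted p below 0.05 there were 2 in TREM2-KO, 4 in TREM2-R47H, 0 in SORL1-KO, 1 in SORL1-A528T, 1 in CD33-SNP and 2 in INPP5D-SNP. With the library number as a block, which called 3.95% of all kept genes in TREM2-KO and 19.6% in TREM2-R47H, 1 was called higher in TREM2-KO, and 1 higher and 3 lower in TREM2-R47H. Fits of 2 groups alone called ACVRL1 higher in TREM2-KO, and ACVRL1 and ENG lower in TREM2-R47H. In TREM2-R47H quantile normalization called ACVR2A higher, and omission of the 3 libraries that stood apart called ENG lower. Between TREM2-KO and TREM2-R47H 2 were higher and 2 lower, where 21.3% of all kept genes were called. ACVRL1, the receptor ALK1, averaged 10.6 ± 1.28 TPM in TREM2-KO and 4.69 ± 0.987 TPM in TREM2-R47H (SD, n = 8 and 7; limma adjusted p = 4.79e-05) and was higher along with TGFBR2. The activin receptors ACVR2A, at 3.13 TPM in TREM2-KO and 4.81 TPM in TREM2-R47H, and ACVR1, at 10.1 TPM in TREM2-KO and 13.3 TPM in TREM2-R47H, were lower (limma adjusted p = 0.0127 and 0.0181).

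Over all kept genes, 1.61% were called in TREM2-KO against WT, 11.4% in TREM2-R47H against WT (8.77% lower) and 21.3% between these lines. Of the SMADs and their regulators (20 of 21 kept), SMAD3 was the only one called in TREM2-KO against WT. In TREM2-R47H against WT 3 were called, all lower: SKIL, a repressor of SMADs and a TGF-beta target, at 65.8 ± 12.6 TPM in TREM2-R47H and 100 ± 19.8 TPM in WT (SD, n = 7 each; limma adjusted p = 0.00431), LDLRAD4, an inhibitor of SMAD phosphorylation, at 21.4 TPM in TREM2-R47H and 27.4 TPM in WT (0.0419), and SMAD2 at 58.5 TPM in TREM2-R47H and 65.5 TPM in WT (0.0446). SKIL alone of these was lower without the filter, with libraries 5 and 6 averaged, and with median-ratio scaling or quantile normalization, which had 2 genes higher, and with the library number as a block 2 were higher and 7 lower. SMAD2, the partner of SMAD3, was thus present at a far higher level than SMAD3 in both groups. Between TREM2-KO and TREM2-R47H 4 were higher, among them SKI (50.6 TPM in TREM2-KO, 32.2 TPM in TREM2-R47H), SKIL (102 TPM in TREM2-KO, 65.8 TPM in TREM2-R47H) and LDLRAD4 (30.4 TPM in TREM2-KO, 21.4 TPM in TREM2-R47H), and 3 were lower, among them SMAD3 and SMAD7.

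Listed target genes of TGF-beta and BMP signals (20 of 20 kept) had 0 called higher and 3 lower in TREM2-KO against WT (1.61% of all kept genes called), 0 higher and 5 lower in TREM2-R47H against WT (11.4%), and 4 higher and 7 lower in TREM2-KO against TREM2-R47H (21.3%). The median log2 changes were -0.24, -0.18 and -0.06, against -0.003, -0.06 and 0.06 over all genes. COL1A1, a gene of this list, is also among the stromal markers, with 0.21 to 665.9 TPM over the libraries. The 13 stromal markers had a median sum of 523.9 TPM in WT, 14.4 TPM in TREM2-KO and 27.1 TPM in TREM2-R47H. The part of stromal cells in the changes of the list was not tested. With the library number as a block there were 0 higher and 7 lower in TREM2-KO and 3 higher and 7 lower in TREM2-R47H, both against WT, where the block called 3.95% and 19.6% of all kept genes. In TREM2-KO the adaptor NEDD9 (12.6 ± 2.14 TPM, against 18.7 ± 3.93 TPM in WT), RGCC (18.2 ± 9.69 TPM, against 44.1 ± 11.5 TPM) and the cell cycle inhibitor CDKN2B (2.83 ± 2.60 TPM, against 10.4 ± 7.63 TPM) fell (limma adjusted p = 0.0199, 0.0382 and 0.0459). NEDD9 alone was called without the 3 libraries that stood apart or without the filter, and RGCC alone in a fit of the 2 groups. In TREM2-R47H the genes that fell were SKIL, LDLRAD4, the helix-loop-helix regulators ID1 (0.987 ± 0.345 TPM, against 4.47 ± 3.71 TPM in WT) and ID3 (22.3 ± 8.52 TPM, against 43.0 ± 17.1 TPM), and CCN2, a matrix protein made by stromal cells (0.774 ± 0.729 TPM, against 11.3 ± 10.3 TPM), with limma adjusted p of 0.00435, 0.0157 and 0.0268 for the last 3, and LDLRAD4 was not called with median-ratio scaling. The CCN2 call was lost with a pseudocount of 0.1 TPM, without the filter, in a fit of the 2 groups alone and with libraries 5 and 6 averaged. TREM2-KO had less RGCC (18.2 TPM, against 77.5 TPM in TREM2-R47H) and less SPHK1 (15.3 TPM, against 33.3 TPM) but more ID3 (52.9 TPM, against 22.3 TPM), so the list had no single direction between the TREM2 lines.

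On the axes of CX3CR1 and CD200R1 (12 of 15 kept), TREM2-KO against WT had 0 called higher and 1 lower, RASA1, a RAS inhibitor recruited below CD200R1, at 17.5 ± 1.86 TPM in TREM2-KO and 24.4 ± 4.72 TPM in WT (SD, n = 8 and 7; limma adjusted p = 0.0239). That call was lost without the filter and in a fit of the 2 groups alone. TREM2-R47H against WT had 1 higher and 5 lower, where 11.4% of all kept genes were called (1.61% in TREM2-KO against WT). DOK2, the adaptor that binds CD200R1, averaged 39.2 ± 3.14 TPM in TREM2-R47H and 72.6 ± 8.34 TPM in WT (limma adjusted p = 0.00959), and GNAI2, a G protein that couples chemokine receptors, 505 ± 48.3 TPM in TREM2-R47H and 641 ± 36.8 TPM in WT (0.000235). SIRPA, another inhibitory receptor, averaged 177 ± 18.9 TPM in TREM2-R47H and 219 ± 13.5 TPM in WT (0.00474), and its ligand CD47 48.8 ± 3.47 TPM in TREM2-R47H and 62.3 ± 4.58 TPM in WT (0.000659). Of the 12 genes, TREM2-KO against TREM2-R47H had 6 higher, CD200R1, GNAI2 and CD47 among them, and 2 lower, RASA1 among them. Over all kept genes 21.3% were called there.

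Of the homeostatic microglia genes, 19 of 20 were kept, with CSF1R and CX3CR1 among them. In TREM2-KO against WT, where 1.61% of all kept genes were called, 1 was higher and 1 lower. TREM2-R47H against WT had 1 higher and 3 lower (11.4% of all kept genes called), and SORL1-KO against WT had 1 higher (1.09%). SORL1-KO against SORL1-A528T had 1 higher (0.0942%), GPR34 (limma adjusted p = 0.00114). Between TREM2-KO and TREM2-R47H, where 21.3% of all kept genes were called, 7 were higher and 4 lower. The 1 called lower in TREM2-KO against WT was TREM2, the edited gene itself, which was also among those called between the TREM2 lines. SIGLEC10, an inhibitory lectin, averaged 172 ± 22.1 TPM in TREM2-KO, 70.2 ± 10.1 TPM in TREM2-R47H and 123 ± 11.8 TPM in WT (SD), and was called in both comparisons with WT (limma adjusted p = 0.0382 and 3.96e-05), in TREM2-KO not without the 3 libraries that stood apart, without the filter or with libraries 5 and 6 averaged. GPR34, a lysophosphatidylserine receptor, was higher in TREM2-R47H (382 ± 100 TPM) and in SORL1-KO (469 ± 96.8 TPM) than in WT (252 ± 15.2 TPM), with limma adjusted p of 0.0019 and 5.81e-05. The complement genes C1QA and C1QC were lower in TREM2-R47H (624 and 1548 TPM, against 965 and 2039 TPM in WT), with limma adjusted p of 0.0337 and 0.022, and neither was called with median-ratio scaling or without the filter. Neither CSF1R nor CX3CR1 was among the genes called.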

How the data were processed

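RNA of 40 libraries was measured as TPM. The authors deposited TPM values, 1 column per library; per the submitters' processing notes cutadapt 1.18, STAR 2.7, RSEM 1.3.1 and DESeq2 were used, with no genome build given in the sources used here. Every column was mapped to a sample by its label. TPM keeps no read counts, so depth per library is unknown; per the labels' protocols it averaged 45.13 M reads, with 39.2 M and 64.6 M as extremes. Counting error could therefore not be computed, and the error of a value is the SD over libraries.

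Tests used limma 3.58.1 in R 4.3.3, with trended and robust variance, on log2(TPM + 1) of genes that reached 1 TPM in 7 or more libraries, in 1 fit of all 7 group means. PTPRZ1, under the filter, had exact permutation tests (scipy 1.17.1). The procedure was also run on simulated data, and the outcome of that run is not reported here. Symbols matched 93.5% of gene IDs.

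The members, the 7 pathway lists and the 10 marker lists were chosen with earlier results of these data known; the mast cell list, the test of library numbers, the stromal sum without PECAM1, the omission of 3 libraries and the averaging of libraries 5 and 6 were chosen after the values were seen. Genes named besides the members are the 4 called genes of a list with the lowest adjusted p, the 3 genes most like a member by Pearson r, the other ligands and the edited genes; other named genes were chosen after their values were seen. One gene that this rule names is not reported here. Alternatives were other pseudocounts, filters and scalings, fits of 2 groups alone, a block for library number, and the omission of each library. Library numbers were taken as pairs where every shared number had a residual correlation above 0.1: TREM2-KO with WT (0.114 to 0.312), TREM2-R47H with WT (0.14 to 0.278) and SORL1-KO with SORL1-A528T (0.306 to 0.785).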

Additional observations from a re-analysis of the deposited data

Results flagged for a closer look

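In 47 combinations of a member and a group of 4 to 10 libraries the highest and the lowest library were compared with their nearest neighbour, and in 8 the gap was large for the range of the group (Dixon's test at its 95% critical value). The critical value assumes normally distributed values, which was not tested for TPM, so the share of flags by chance is not known here. For PTPRZ1 in WT, with 6 of 7 libraries listed at 0, any single value above 0 is flagged.

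CSF1R stood out in library 7 of SORL1-KO, at 1287.7 TPM with the next at 924.84 TPM, and in library 7 of SORL1-A528T, at 1161.44 TPM with the next at 783.85 TPM. CD200R1 was also highest in library 7 of SORL1-A528T, at 3.44 TPM with the next at 1.69 TPM. Both libraries belong to the 3 that correlated least with their own group. TGFBR2 stood out in library 4 of WT, at 89.94 TPM with the next at 62.9 TPM. SMAD7 was lowest in library 6 of SORL1-A528T, at 46.84 TPM with the next at 51.12 TPM, and highest in library 5 of WT, at 60.28 TPM with the next at 50.47 TPM. PTPRZ1 read 0.22 TPM in library 6 of TREM2-KO, with the next at 0.08 TPM, and 0.24 TPM in library 7 of WT, where the other libraries were listed at 0.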

How the results depend on the processing

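Among single members, 2844 of the changes recomputed without 1 library kept their call, 10 gained one and 26 lost one; under the other alternatives these numbers were 679, 10 and 7, and no called change reversed. For TREM2-R47H against WT the 2 called members became 1 with a pseudocount of 5 TPM, 0 with no filter, 1 with a filter of 5 TPM, 1 with libraries 5 and 6 averaged, and 0 to 3 when each library was left out. For TREM2-KO against WT the 1 called member became 0 with a filter of 5 TPM, which removes SMAD3, and 1 to 2 when each library was left out. Between TREM2-KO and TREM2-R47H the 5 became 3 with a filter of 5 TPM, which removes SMAD3 and CD200R1. For INPP5D-SNP against WT the 0 became 3 with the replicate block, CSF1 at -1.07, TGFBR2 at 0.68 and CX3CR1 at 1.401 on the log2 scale (limma adjusted p = 0.034, 0.0275 and 0.029); only 2 numbers are shared there and do not pair, and the cause was not tested. Beside TGFBR2 in TREM2-R47H, the block changed no other call of a member.

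Counts over all genes moved by more than 1.5 times with the replicate block for TREM2-KO (587, against 239), TREM2-R47H (2906, against 1693), SORL1-KO (735, against 162), SORL1-A528T (127, against 7), CD33-SNP (38, against 0) and INPP5D-SNP (1567, against 5), each against WT, and for SORL1-KO against SORL1-A528T (24, against 14). The numbers did not pair for SORL1-KO, SORL1-A528T, CD33-SNP and INPP5D-SNP against WT, so no conclusion is drawn from those block counts. In the listed order of the samples, libraries 1 and 2 of CD33-SNP and INPP5D-SNP stand among libraries 4 and 5 of the other lines. Against WT, fits of 2 groups alone called 159 in TREM2-KO, 52 in SORL1-KO, 4 in SORL1-A528T and 490 in INPP5D-SNP. With no filter, SORL1-KO had 67, SORL1-A528T had 4, CD33-SNP had 209 and INPP5D-SNP had 373; averaging libraries 5 and 6 gave 35 for SORL1-KO and 3 for SORL1-A528T. For SORL1-A528T a pseudocount of 0.1 or 5 TPM gave 4 and quantile normalization 16, and for INPP5D-SNP a pseudocount of 5 TPM gave 8 and omission of the 3 libraries 10. Levels near 1 TPM (SMAD3, CD200R1, SDC1) have no counting error here, since TPM keeps no depth.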
